A study of Homo sapiens with 2 samples.

Results

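The Iroquois homeobox family was examined by RNA sequencing in REH and 697, established human cell lines of acute lymphoblastic leukemia that arose from B-cell precursors (BCP-ALL). Its 6 members, IRX1 to IRX6, were taken by symbol from the 57773 genes in the count tables, and all 6 were found. The family was picked because IRX2 was already known to differ strongly between these libraries, so the comparison between the lines is given as a description.

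In REH, 1 ETV6 allele is fused to RUNX1 and the other is deleted. 697 lacks this fusion. Both lines were cultured in the same supplemented RPMI medium, without a drug or knockdown, and each contributed 1 library of total RNA. With 1 library per line there is no spread between cultures and no test. The intervals given are exact 95% intervals (Poisson for read counts, Clopper-Pearson for shares and ratios), and they cover counting error only.

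Iroquois proteins are transcription factors with a homeodomain of the TALE class, in which an extra stretch of amino acids joins the first and second helix, and with a conserved Iro box. They are best known for patterning the heart, the nervous system and the limb. The genes lie in a pair of clusters that arose by duplication. IRX1, IRX2 and IRX4 are on chromosome 5, and IRX3, IRX5 and IRX6 are on chromosome 16. By descent, IRX1 pairs with IRX3, IRX2 with IRX5 and IRX4 with IRX6. They are not part of the usual B-cell programme, although IRX3 is known from subsets of acute leukemia.

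The libraries held 45188375 reads in genes for REH and 41097497 for 697. Of 10 markers of B-cell precursors, 9 had at least 10 reads in REH and 10 in 697, and the remaining value was that of VPREB1, a surrogate light chain gene, with 3 reads in REH. Because IRX genes are active in mesenchyme and epithelia, markers of these tissues were read as well. COL1A2, COL3A1, KRT8 and KRT18 had 0 reads in both libraries, EPCAM had 1 read in REH and 0 in 697, and COL1A1 had 477 reads in REH and 387 in 697. The myeloid gene MPO had 12643 reads in REH and 12 in 697. Its level was 252 CPM in REH and 0.325 CPM in 697 (CPM being reads per 1000000 of the scaled gene total). The whole myeloid list summed to 253 CPM in REH and 2.25 CPM in 697, so in REH it was nearly all MPO. CD14 had 29 reads in REH and 8 in 697. CSF1R had 30 and 61, LYZ had 1 and 2, and ELANE had 0 in both. The part of MPO in the IRX values was not tested.

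Both lines had reads of IRX1, IRX3 and IRX5, at levels that differed most for IRX3. Only 697 had reads of IRX2, and both lines had almost no reads of IRX4 and IRX6. In REH, IRX1 had 3134 reads, IRX3 had 1144, IRX5 had 334, IRX6 had 1, and IRX2 and IRX4 had 0. In 697, IRX2 had 11397 reads, IRX1 had 1746, IRX3 had 115, IRX5 had 109, and IRX4 and IRX6 had 0. REH thus had reads from 1 chromosome 5 gene and 2 chromosome 16 genes above a minimum of 10 reads, and 697 from 2 genes of each cluster. In whole-culture RNA, fewer expressing cells and less RNA per cell cannot be told apart.

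**Figure D1:**
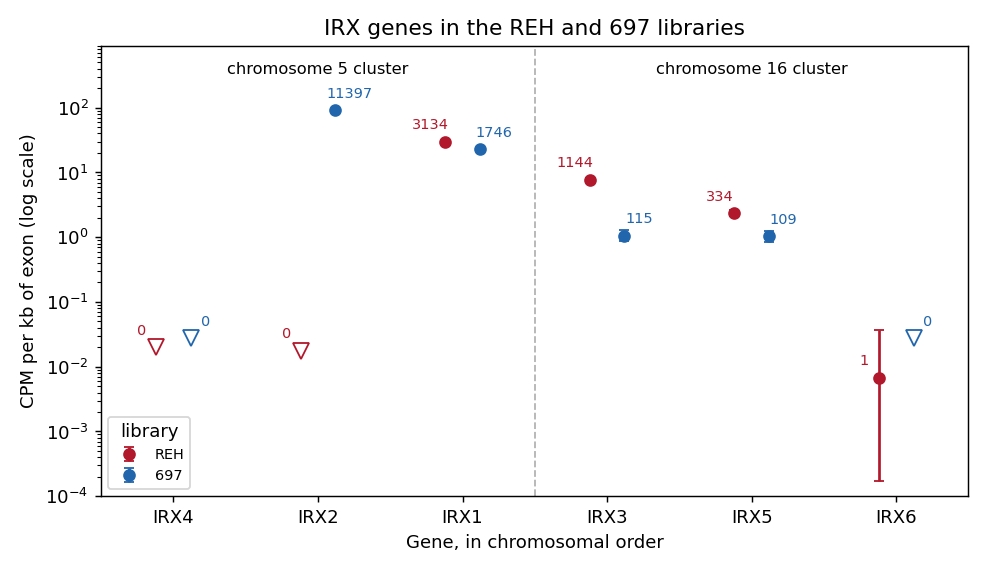
Level of each IRX gene, as CPM per kb of exon on a log scale, in the REH (red) and 697 (blue) libraries, with read numbers beside the points. Bars are 95% Poisson intervals, and open triangles mark genes with 0 reads, drawn at the level of 3 reads. IRX2 is the highest point in 697 at 90.8 and has 0 reads in REH, while the lines lie closest at IRX1.

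Of the 6 members, 4 reached 10 reads in a library and could be compared across the lines. The log2 ratio (REH over 697) was 2 or more in size for 2 of the 4, above 0 for IRX3 and below 0 for IRX2. Over all 19145 genes with that many reads, 20.7% passed this threshold in either direction, 12.5% being higher in REH and 8.15% higher in 697. The members were chosen on this contrast, so nothing is read from their count.

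On chromosome 5, IRX2 (ENSG00000170561; 2745845 to 2751677, minus strand, 4 exons; positions of genes are those of GENCODE 44 on GRCh38) lies between IRX4 and IRX1, 859 kb from IRX4 and 844 kb from IRX1. Its level was 308 CPM in 697, or 90.8 CPM per kb of exon (interval 89.1 to 92.4). In REH no read was counted, where 3 reads would be 0.0597 CPM. At this floor of 3 reads in the REH library, IRX2 was 5169-fold lower in REH than in 697. The upper limit of its log2 ratio was -12.04, a smaller difference than at the floor. When the 12229 protein-coding genes with 10 or more reads in 697 were ordered, IRX2 ranked 316th per kb of exon, so 2.58% were higher. Among the 331 genes with 0 reads in REH and at least 10 in 697, it had the most reads in 697. The next of the 331 was CLEC14A with 5235 reads, and their median was 40 reads. This place is a description, since the family was picked for the difference in IRX2. It also depends on the cut at exactly 0 reads. MAGI1, with 1 read in REH, had 11997 reads in 697, more than IRX2.

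A gene annotated on the opposite strand followed the same pattern. IRX2-DT, also called C5orf38, is a lncRNA gene whose start lies 0.454 kb from that of IRX2 in GENCODE 44 and 216 bases from it in RefSeq, running the other way. It had 0 reads in REH and 1377 in 697 (37.3 CPM), 624-fold lower in REH at the floor of 3 reads. The upper limit of its log2 ratio was -8.99. The unnamed lncRNA ENSG00000259757, on the strand of IRX2 and 8.09 kb beyond its 3′ end, had 0 reads in REH and 61 in 697. At the floor it was 27.7-fold lower in REH, and the upper limit of its log2 ratio was -4.45. All 3 annotated genes of this locus therefore had reads in 697, and none was detectable in REH at this depth. Reads were assigned by position and not by strand. Whether ENSG00000259757 is transcribed apart from IRX2 was not tested.

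The 250 bases before the RefSeq starts of IRX2 and IRX1 are shown because these neighbours in the cluster, 844 kb apart, had the most and the least different read counts of the members compared. The IRX2 stretch (chr5:2751678-2751927, minus strand) also holds the start of IRX2-DT, and the IRX1 stretch is chr5:3595582-3595831, plus strand. Both are RefSeq sequence on GRCh38.p14, with capitals marking CAGNTG on either strand, the core of the E-box read by class I bHLH proteins such as TCF3.
IRX2: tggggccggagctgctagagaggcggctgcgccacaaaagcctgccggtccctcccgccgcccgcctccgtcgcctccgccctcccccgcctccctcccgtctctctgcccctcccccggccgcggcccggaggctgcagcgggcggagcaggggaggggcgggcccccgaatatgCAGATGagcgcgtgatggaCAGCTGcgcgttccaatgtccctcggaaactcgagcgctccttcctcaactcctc
IRX1: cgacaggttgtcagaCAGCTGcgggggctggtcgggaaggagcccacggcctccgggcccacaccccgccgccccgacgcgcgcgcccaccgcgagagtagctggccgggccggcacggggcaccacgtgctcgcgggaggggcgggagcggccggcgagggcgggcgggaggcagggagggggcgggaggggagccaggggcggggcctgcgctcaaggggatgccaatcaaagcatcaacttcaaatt

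CAGNTG occurred 2 times before IRX2 and 1 time before IRX1, and 42.5% of the 34943 RefSeq windows of this length hold it. The CCAAT box, CCAAT, occurred 1 time in each and is held by 32.0% of windows. No match was found in either for TGTGGT, a core read by RUNX proteins (11.0% of windows), or for TATAAA (10.8%). All motifs were searched on both strands, and none of the listed matches overlap. The windows were rich in G and C, at 72.8% with 27 CpG before IRX2 and 75.2% with 29 CpG before IRX1, against medians of 58% and 11 CpG. The 3 RefSeq windows of IRX4, a gene with 0 reads in both libraries, had 64% to 79.2% and 30 to 40 CpG. G and C content and CpG number were thus above the median in a gene read in 697 only, a gene read in both lines and a gene read in neither.

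IRX1 (ENSG00000170549; 3595832 to 3601403, plus strand, 4 exons) was the only chromosome 5 member with reads in REH. Its level was 62.3 CPM in REH and 47.3 CPM in 697, a log2 ratio of 0.40 (interval 0.31 to 0.49), or 1.32-fold higher in REH. This difference exceeded counting error but was far below the threshold. Per kb of exon, IRX1 reached 30.0 CPM in REH and 22.7 CPM in 697. In REH it was the highest member, with 9.05% of protein-coding genes above it, and in 697 the share above it was 16.1%.

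The IRX1 counts leave out reads shared with an antisense lncRNA, ENSG00000259603, whose exons lie within IRX1 exons on the opposite strand. With strands pooled, a read in the shared stretch belongs to neither gene. IRX1 had 3134 reads pooled and 4384 over both strand columns in REH, so 1250 reads (28.5%) were left out. In 697 the numbers were 1746 and 2403, and 657 reads (27.3%) were left out. A share at least as large in both libraries was found for 9.41% of 18095 genes. With these reads restored, IRX1 reached 39.3 CPM per kb in REH and 29.1 in 697, and its log2 ratio was 0.44 (interval 0.36 to 0.51). IRX2 lost 146 reads (1.26%) in 697 to IRX2-DT, and IRX3 and IRX5 lost 0.

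**Figure D2:**
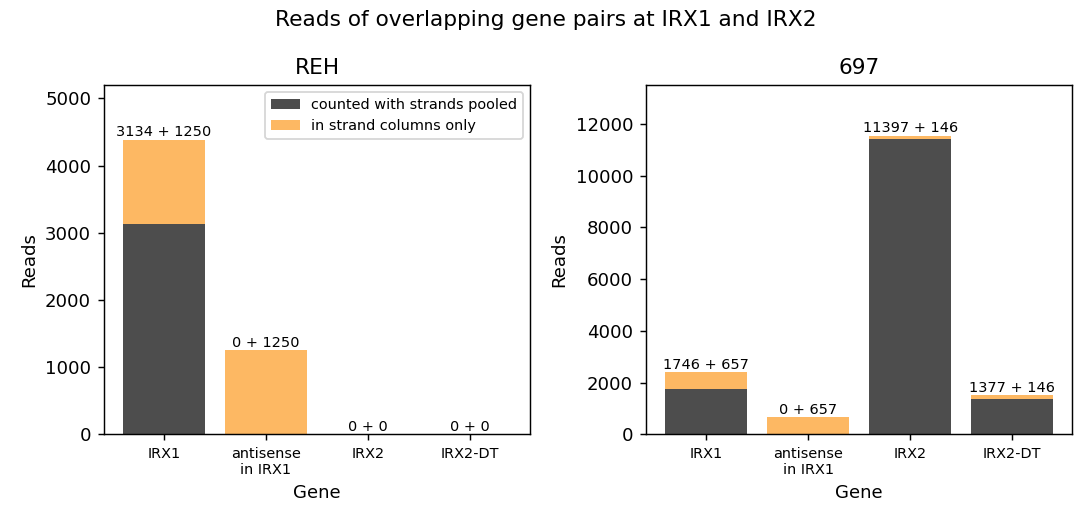
Reads of IRX1 and the antisense lncRNA ENSG00000259603, and of IRX2 and IRX2-DT, in REH and 697 (the vertical scales differ). Dark bars are reads counted with strands pooled and orange bars are reads seen in the strand columns only, with both numbers above. The orange part is the same for both genes of a pair, 1250 and 657 at IRX1 and 146 at IRX2 in 697.

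Over all genes, the strand columns did not separate the strands. The strand column of the gene held 50.1% of assigned reads in REH and 50.2% in 697. For IRX1 this share was 49.7% in REH (interval 48.2% to 51.2%), and for IRX2 it was 49.8% in 697 (interval 48.9% to 50.7%). For the reads of the antisense lncRNA the share of its own column was 44.1% in REH (interval 41.3% to 46.9%) and 45.4% in 697 (interval 41.5% to 49.3%), below 50% in both. Other genes lay as far from 50%. The homeobox gene PBX2, with 0 reads left out, had 44.6% in REH (interval 43.0% to 46.2%) and 45.7% in 697 (interval 43.6% to 47.9%). MRPL36 had 59.4% in REH and 59.3% in 697. PBX2 and MRPL36 were taken as examples here after their values were seen. Reads at IRX1 may come from either strand where the antisense lncRNA overlaps.

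IRX4 (ENSG00000113430; 1877413 to 1887236, minus strand, 5 exons), known for its role in the ventricles of the heart, had 0 reads in both libraries, and so had its antisense lncRNA IRX4-AS1. The nearest genes with reads were MRPL36, with 589 reads in each library, and NDUFS6, with 2521 reads in REH and 1942 in 697, which code for a mitochondrial ribosomal protein and a complex I subunit. Their starts lie 76.0 kb from IRX4. The log2 ratio of NDUFS6 was -0.07 (interval -0.15 to 0.02; 0.24 with unscaled totals) and that of MRPL36 was -0.44 (interval -0.61 to -0.28).

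On chromosome 16 the members with reads were higher in REH. IRX3 (ENSG00000177508; 54283304 to 54286787, minus strand, 4 exons), a gene linked to body weight through enhancers within FTO, had 22.8 CPM in REH and 3.11 CPM in 697. Its log2 ratio was 2.86 (interval 2.59 to 3.16), which is 7.28-fold higher in REH. IRX5 (ENSG00000176842; 54930865 to 54934485, plus strand, 3 exons), which acts with IRX3 in heart and limb, had 6.64 CPM in REH and 2.95 CPM in 697. Its log2 ratio was 1.17 (interval 0.86 to 1.50), or 2.25-fold higher in REH, and fell short of the threshold. The intervals of these log2 ratios did not overlap, so the members differed in size by more than counting error. IRX6 (ENSG00000159387; 55324203 to 55330756, plus strand, 6 exons) had 1 read in REH and 0 in 697, at or under the floor of 3 reads in both.

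In REH, IRX3 was 3.32 times as high as IRX5 per kb of exon (interval 2.93 to 3.76), at 7.75 and 2.34 CPM per kb. In 697 the values were 1.06 and 1.04 CPM per kb, a ratio of 1.02 (interval 0.78 to 1.34). The order per kb in REH was therefore IRX1, IRX3 and IRX5, with IRX1 3.87 times as high as IRX3 (interval 3.61 to 4.14). In 697 it was IRX2, then IRX1, with IRX2 3.99 times as high as IRX1 (interval 3.80 to 4.20), then IRX3 and IRX5, whose order counting error cannot settle. Within the 697 library, IRX2 was 87.4 times as high per kb as its duplicate IRX5 (interval 72.4 to 107). IRX1 was above its duplicate IRX3 in both libraries, by 21.4 times in 697 (interval 17.7 to 26.1).

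The clusters were then compared as sums. The chromosome 5 genes had 3134 reads in REH and 13143 in 697, a log2 ratio of -2.51 (interval -2.57 to -2.46). The chromosome 16 genes had 1479 and 224 reads, a log2 ratio of 2.28 (interval 2.08 to 2.49). The sums therefore pointed in opposite directions. The sign on chromosome 5 came from IRX2, which made up 86.7% of that cluster's reads in 697, while IRX1 had a ratio above 0. Chromosome 5 supplied 67.9% of all IRX reads in REH (interval 66.6% to 69.3%) and 98.3% in 697 (interval 98.1% to 98.5%). With the ambiguous reads of IRX1 restored, the REH share was 74.8%.

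Genes around each cluster were read within 1 Mb to each side of the outermost members. On chromosome 5, 53 other genes lay in this span, 23 had 0 reads in both libraries, and 18 reached 10 reads. Of the 18, 0 were past the threshold towards REH and 4 towards 697, beside 12.5% and 8.15% of all genes tested. The median log2 ratio was -0.24, beside 0.05 over all genes tested. With unscaled totals these medians were 0.063 and 0.36. Within 2 Mb, 3 genes were past the threshold towards REH and 5 towards 697, and the number compared in that wider span was not counted. Besides IRX2-DT and ENSG00000259757, the 4 were TERT, the catalytic subunit of telomerase (1462 reads in REH and 6139 in 697), and the dopamine transporter gene SLC6A3 (2 and 31), both named after their values were seen. These lie 582 kb and 432 kb from IRX4, on the side away from IRX2. The genes between IRX2 and IRX1, apart from IRX2-DT, had fewer than 10 reads.

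On chromosome 16, 44 other genes lay in the span, 24 had 0 reads in both libraries, and 9 reached 10 reads. Of the 9, 2 were past the threshold towards REH and 0 towards 697, beside 12.5% and 8.15% of all genes tested. Within 2 Mb, 3 genes were towards REH and 7 towards 697, and here too the number compared was not counted, so no regional pattern is read. The median log2 ratio within 1 Mb was 1.42, beside 0.05 over all genes tested, and it was 0.78 in the sum of both strand columns. The 2 were the lysophospholipid acyltransferase gene LPCAT2 (1876 reads in REH and 2 in 697) and the lncRNA ENSG00000261997 on the same strand inside it (44 and 0), named after their values were seen. LPCAT2 starts 178 kb from IRX6. FTO, an RNA demethylase gene 125 kb from IRX3, had a log2 ratio of 0.57 (interval 0.48 to 0.66), from 3363 reads in REH and 1665 in 697. RPGRIP1L, a gene of the primary cilium, had a log2 ratio of 0.77 (interval 0.65 to 0.89), from 1981 and 855 reads. Both had smaller ratios than IRX3.

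The lncRNA CRNDE, first described in colorectal tumours, starts 1.68 kb from IRX5 and runs the other way. It had 1908 reads in REH and 2579 in 697, a log2 ratio of -0.88 (interval -0.97 to -0.79). IRX5 and CRNDE thus pointed in opposite directions across the lines, whereas IRX2 and its divergent lncRNA IRX2-DT were both seen in 697 only.

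**Figure D3:**
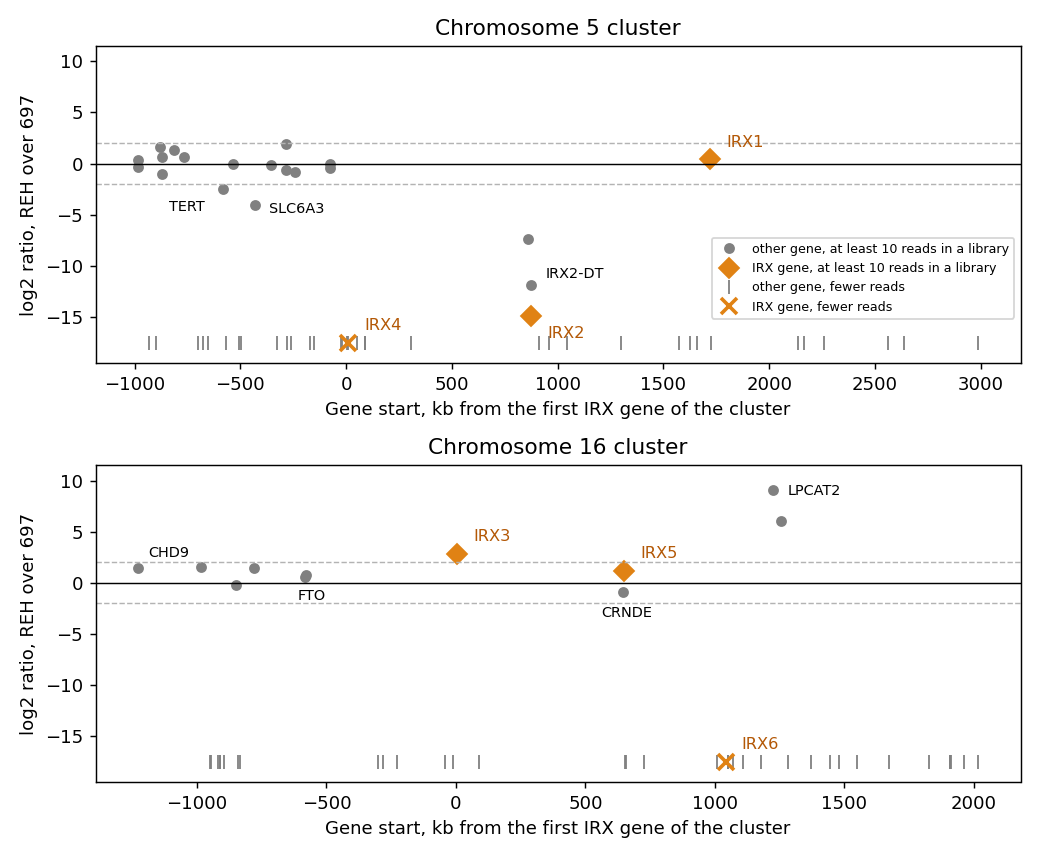
Log2 ratio (REH over 697) of the IRX genes (orange) and of other genes within 1 Mb of each cluster (grey), by the distance in kb of the gene's start from the first IRX gene. Marks along the bottom are genes with fewer than 10 reads in both libraries, and dashed lines are log2 ratios of 2 and -2. IRX2 and the pair of lncRNAs beside it lie far below 0, and IRX3 and IRX5 lie above 0 with CRNDE below.

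A list of 11 TALE homeobox genes outside the family was read beside it. They code for PBX, MEIS and PKNOX proteins, which bind DNA together with HOX factors, for the TGIF repressors and for MKX. Of the 11, 7 reached 10 reads. Of the 7, 0 were past the threshold towards REH and 1 towards 697, beside 12.5% and 8.15% of all genes tested. The median log2 ratio was -0.38, beside 0.05 over all genes tested, and with so few genes nothing is read from the count. The gene past the threshold was MEIS2, whose 1 read in REH and 170 in 697 gave a log2 ratio of -7.27 (interval -13.17 to -5.36). The other 6 lay between -0.75 and 0.59, and MEIS1, MEIS3, PKNOX2 and MKX had at most 3 reads in a library.

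**Figure D4:**
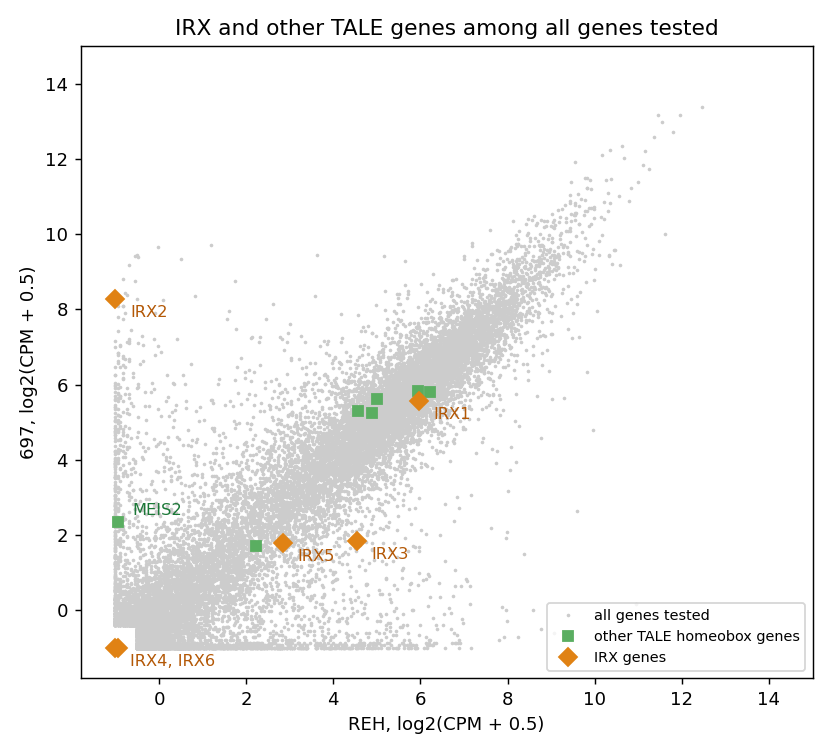
Expression in REH (horizontal) and 697 (vertical), as log2(CPM + 0.5), of the IRX genes (orange), the listed TALE genes with at least 10 reads (green) and all genes tested except Y-linked genes and XIST (grey). IRX2 lies at the left edge, high above MEIS2, IRX1 lies within the main band, IRX3 lies below it, and IRX4 and IRX6 lie in the lower left corner.

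The genes closest to IRX2 over the 2 libraries were found by their distance in this plane, among the 13155 genes that reached 100 reads in either library. They were MAGI1, a scaffold of cell junctions (1 read in REH and 11997 in 697, distance 0.09 log2 units), the adducin gene ADD2 (1 and 9978, distance 0.20), VPREB1 (3 and 10039, distance 0.24), the lysosomal membrane gene LAPTM4B (3 and 10036, distance 0.24) and the lncRNA TRHDE-AS1 (4 and 12827, distance 0.27). With 2 libraries this likeness says only that the genes had similar levels in each.

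Members resemble one another in the homeobox, so reads that match several of them would have been left out of the counts. Of the stretches of 31 bases in their GENCODE 44 transcripts, 1.29% (IRX6) to 3.70% (IRX5) were shared with another gene, apart from IRX1, where 18.7% were shared. For IRX1, 329 of 384 shared stretches were with ENSG00000259603. That gene overlaps IRX1, so these stretches do not make a read match several places. IRX1 shared 55 of 2050 stretches with other members. IRX2 shared 66 of 3396 stretches with other members.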

How the data were processed

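Per the labels and the study's methods, the authors prepared RNA from 1 culture of each line, aligned the reads with STAR and deposited raw read counts per gene. The labels describe stranded, ribodepleted libraries and hg19, and the methods poly(A) purification and hg38. The highest gene ID in the files is ENSG00000273493, from an older gene set. The annotation used for counting is not given in the sources used here. Symbols, positions and exon lengths therefore come from GENCODE 44 (51996 of 57773 IDs matched), and levels per kb are approximate. REH had 63954817 reads and 697 had 58948890, of which 10.8% and 15.4% mapped to several places and were not counted.

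Reads on either strand were used. CPM was computed from totals scaled with edgeR 4.0.16 (R 4.3.3) by trimmed means of M-values (TMM), with factors of 1.11 (REH) and 0.899 (697). Log2 ratios had 0.5 reads added. Genes reaching 10 reads in either library were compared, with a threshold of 2 in size. A fold against 0 reads was computed with 3 reads in place of 0 in that library. The ratio computation was tested on simulated data. The study's test, DESeq2, needs replicates, so no p-value is given. Python 3.11.15 with scipy 1.17.1, pandas 2.3.3 and matplotlib 3.10.9 was used for the rest.

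The members and lists were chosen with earlier results of these data known. Genes named by rule were the IRX genes, neighbours with at least 10 reads starting within 100 kb of one, FTO, RPGRIP1L, CRNDE and IRX2-DT. The rule also took TALE genes past the threshold and the 5 genes nearest to IRX2. Others fall outside it, among them CLEC14A, PBX2, IRX4-AS1, ENSG00000259603 and those marked as named after their values were seen. T-cell and erythroid markers summed to at most 0.935 CPM in a library. One gene of the TALE list is not reported here. Promoter sequences were matched by symbol for IRX1, IRX2 and IRX4. Alternatives were size factors from DESeq2 1.42.0, TMM factors of protein-coding genes, unscaled totals, 5 reads added, each strand column, other minimum reads, threshold and flanks, and, added after seeing the data, the sum of both strand columns.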

Additional observations from a re-analysis of the deposited data

Results flagged for a closer look

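The antisense lncRNA ENSG00000259603 inside IRX1 had 0 reads in both libraries with strands pooled. In the strand columns it had 1250 reads in REH and 657 in 697, above the floor of 3 reads used for a count of 0. Pooled counts thus list it at 0 in the presence of reads that it shares with IRX1. The strand these reads come from cannot be told, since the strand columns did not separate the strands over all genes. The strand column of the lncRNA held 551 reads and the opposite column 699 in REH, and 298 and 359 in 697. The share of its own column was 44.1% in REH (interval 41.3% to 46.9%) and 45.4% in 697 (interval 41.5% to 49.3%). Both intervals lay below 50%, the share an even split would give, but they cover counting error only. PBX2, with 0 reads left out, had 44.6% in REH and 45.7% in 697, so nothing about the strand is read from this share. Of 26497 genes at 0 in both libraries with strands pooled, 276 had at least 100 reads in the strand columns of both.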

How the results depend on the processing

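The counts past the threshold were 1 IRX gene higher in REH and 1 higher in 697, and these numbers and the directions of IRX1, IRX2, IRX3 and IRX5 held under every scaling, added reads and strand column tried. Every log2 ratio shifts by 0.31 towards REH with unscaled totals, which turned the sign of NDUFS6 (0.24) and of the median near the chromosome 5 cluster (0.063), gave 0.71 for IRX1 and 3.17 for IRX3 and called 1 gene near the chromosome 5 cluster towards REH, as did each strand column. With 5 reads added IRX2 was at -11.60, since its fitted ratio depends on that addition. The chromosome 5 share of IRX reads in REH was 74.5% and 75.1% in the strand columns, 74.8% in their sum and 74.8% per kb of exon. When 1 read sufficed, 3592 genes were higher in REH and 4411 in 697, and 1 other TALE gene passed in each direction. Near the clusters, 2 (REH) and 8 (697) genes then passed on chromosome 5, and 3 (REH) and 4 (697) on chromosome 16. The number compared at this minimum was not counted, so nothing is read from these counts. Raising the minimum to 50 reads left 1464 genes higher in REH and 1048 in 697. Near the clusters it left 0 (REH) and 3 (697) on chromosome 5, and 1 (REH) and 0 (697) on chromosome 16. At a log2 ratio of 1, 4293 of the 19145 genes tested were higher in REH and 3336 in 697. Of the IRX genes, 2 (IRX3 and IRX5) were then higher in REH and 1 (IRX2) in 697. Near the clusters, 3 (REH) and 5 (697) genes passed on chromosome 5, and 5 (REH) and 0 (697) on chromosome 16. Within 2 Mb, 3 genes near the chromosome 5 cluster passed towards REH and 5 towards 697, and near the chromosome 16 cluster 3 passed towards REH and 7 towards 697. No paired analysis was possible because REH and 697 were each sequenced as 1 library, and no replicate could be left out. A level under 3 reads cannot be told from 0 at this depth.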
